A study of Mus musculus with 41 samples.

Results

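Chemokine receptors are the G protein-coupled receptors by which leukocytes sense gradients of chemokines and move along them. The 9 receptors described here, Ccr1, Ccr2, Ccr3, Ccr4, Ccr7, Cx3cr1, Cxcr3, Cxcr4 and Xcr1, were taken by gene name from the spots of 2-color oligonucleotide arrays, on which they have 15 of 41174 probes and 9 of 27962 gene names. Each receptor is carried mainly by particular cells, so in a piece of tissue its mRNA tells as much of which cells are present as of what they express. Ccr2 and Cx3cr1 mark classical and patrolling monocytes, Ccr1 and Ccr3 are found on granulocytes and monocytes, Ccr4 and Cxcr3 on helper and cytotoxic T cells, Ccr7 on naive T cells and migrating dendritic cells, and Xcr1 on the dendritic cells that cross-present antigen, while Cxcr4 is carried by nearly every leukocyte.

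Female C57BL/6 mice, of the substrain C57BL/6BomTac by the study's methods, inhaled nanoTiO2, labelled as 40 mg/m3, for 1 h per day on 11 days, or filtered air, and were killed 5 days after the last exposure. All were adults that had been time-mated for a parallel developmental study and had not conceived, and their age is labelled only as equivalent to gestation day 4. Lung was measured in 7 nanoTiO2-exposed and 6 control (air exposed) mice and liver in 7 exposed and 8 control mice, with 1 mouse per array. By the mouse numbers of the mRNA labels, 12 mice gave both tissues. Each value is the log2 ratio of the mouse RNA in Cy5 to 1 common reference RNA pooled from 11 mouse cell lines in Cy3, so that a value of 0 is the level in those cell lines and levels of different probes cannot be set against each other. The dyes were never swapped. Exposed mice lay at slide positions 1 and 2 and controls at 3 and 4, so that exposure and position cannot be told apart. Lung and liver lay on separate slides and were read with different scanner software versions, so tissue cannot be told apart from either.

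The tissue labels matched their defining markers. All 6 lung epithelium genes were higher in control lung than in control liver and all 6 hepatocyte genes on the array were lower, with median log2 differences of 4.67 and -5.40 without background correction. The mean log2 ratio of the hepatocyte genes was 0.58 to 2.46 on exposed and 0.30 to 1.11 on control lung arrays, and the neutrophil genes reached 1.71 on 1 control liver array against 0.19 at most in exposed liver. Between 61.3% and 67.5% of the spots of a lung array, and between 55.1% and 70.5% of those of a liver array, were well above background in Cy5.

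The planned background correction stood apart on 6 arrays, those of exposed lungs 1, 12 and 23 and of control livers 24, 26 and 27. The fitted Cy5 background of these arrays was -686 to -47.9 intensity units against -16.5 to -4.44 on the others, and the ratios of dim probes on them lay nearer to 0. Values by array and differences are therefore given without background correction, an alternative listed with the planned fit, unless the planned fit is named. With spots of marked background also left out of the model, a repair added after the data were seen, the fitted background was -8.44 to -4.12 on all arrays.

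Probe sequences tell which receptors are read at 1 site and which at 2 separate sites. The 2 probes of a receptor read the same RNA on the same array and are not replicates. The probes are 60-base oligonucleotides, and positions are those of the lung scanner files on mouse build mm7. Xcr1, Ccr1, Ccr3 and Ccr2 lie in 1 cluster of 0.257 Mb on chromosome 9, between 123571166 and 123827765. The 2 Xcr1 probes lie 3678 bases apart on the minus strand, A_51_P345805 at chr9:123574844-123574903 and A_52_P490159 at chr9:123571166-123571225, and they gave different results. All 3 reading frames of the first are free of stop codons and none of the second is; which part of the transcript either covers is not given in the sources used here. The first 30 bases of each are shown because the finding on Xcr1 rests on 1 of them.
Xcr1 A_51_P345805: cagcacaacatcttcttcctcctctccatg
Xcr1 A_52_P490159: ttttttaagtgtctgttaatgagggggaaa
The 2 Cxcr4 probes, on chromosome 1, start 580 bases apart, and are shown because their exposure differences are not of 1 size.
Cxcr4 A_52_P585124 (chr1:128468640-128468699): aggaagaaactgaacattccagaatgtgtg
Cxcr4 A_52_P565353 (chr1:128469220-128469279): catattatgtggggatcagcatcgactcct
The 2 Ccr4 probes overlap by 30 bases, given here in capitals, and so are not independent.
Ccr4 A_51_P444473 and A_51_P444476: CTTGAGTGGATCTCTAGTTTGGTTGAACTA
Probes of different receptors share at most 10 bases in a row.

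Of the 15 probes, 7 were well above background in Cy5 on all 13 lung arrays, and 6 of the 9 receptors had a probe measured on at least 12 of them. These were Ccr2, Ccr7, Cx3cr1, Cxcr3, Cxcr4 and Xcr1. Ccr1 and both Ccr4 probes were not well above background on any of the 28 arrays, as was the case for 25.8% of all probes in lung and 23.9% in liver. Ccr4 was measured in the reference on 26 to 28 arrays, so that its log2 ratio, -0.52 in control lung with a Cy5 signal that is only a bound, says that it was lower in the tissue than in the cell lines by an unknown amount. In the reference, Ccr2 A_51_P245989 and Xcr1 A_52_P490159 were well above background on 0 of 28 arrays, so that their levels against the cell lines are not measured. Ccr3 lay at the edge, with its probe A_52_P661044 measured on 4 of 7 exposed lung, 0 of 6 control lung and 8 of 15 liver arrays.

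**Figure D1:**
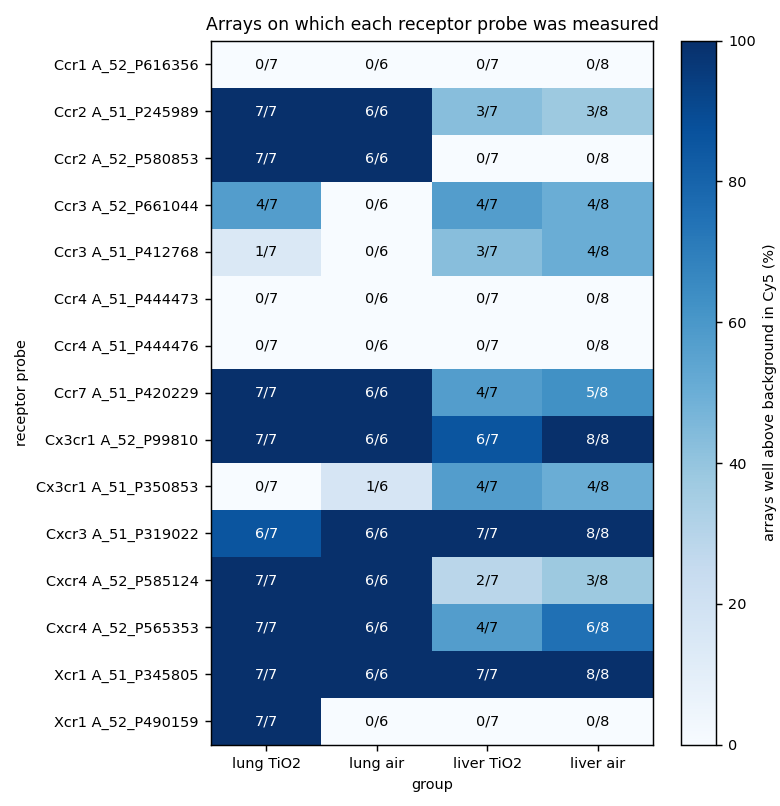
Arrays on which each of the 15 receptor probes (rows) was well above background in Cy5, by group (columns), as counts of arrays and as percent by color. Ccr1 and Ccr4 were measured on no array, and Xcr1 A_52_P490159 on all 7 exposed lung arrays and on no other.

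On the lung arrays no receptor differed between exposed and control mice beyond the threshold (limma, adjusted p under 0.05, Benjamini-Hochberg over all probes). By a PCR panel of cytokines and receptors, the study reported higher Xcr1 and Ccr4 mRNA in exposed lungs. Ccr4 was not well above background on the arrays, so their values do not bear on its change. Of the 15 probes, 0 were called in the planned fit, against 0.0534% of all probes, and 0 without background correction, against 0.204%. With background-marked spots out of the model there were also 0, against 0.221%. At an unadjusted p under 0.05 there were 3 of 15 probes in the planned fit, where 14.7% of all probes pass, and 2 of 15 without background correction, where 8.17% pass. Because these are bulk samples, fewer cells of a type and less RNA per cell cannot be told apart for any receptor.

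The probe that came nearest to the threshold was Xcr1 A_52_P490159. Xcr1 is the receptor for Xcl1, which T cells and natural killer cells release to draw cross-presenting dendritic cells. Without background correction its log2 ratio in exposed lung was 0.25 at the lowest, 0.46 at the median and 0.71 at the highest, and in control lung 0.13, 0.22 and 0.31. Of the 7 exposed mice, 6 lay above every control, and mouse 7 lay within the control range. The probe was well above background on 0 of 6 control lung arrays, which therefore have only a bound, and exposed lung was at least 1.17-fold higher in normalized Cy5 signal. The fitted difference of the ratios was 0.24 ± 0.06 (SE; 7 against 6 arrays), with an exact 2-sided permutation p of 0.00524 over all 1716 splits and an adjusted p of 0.27 from limma, and it does not measure a fold. The permutation test was planned for each receptor's probe of highest mean signal, which this is not. This probe was singled out after the data were seen.

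This probe was well above background on all 7 exposed lung arrays and on 0 of 15 liver arrays. Of all 41174 probes 6 (0.0146%) were measured on every exposed and no control lung array, 0 (0%) showed the opposite, and 3 (0.00729%) were in addition measured on no liver array. In the planned fit the fitted difference was 0.06 (adjusted p = 0.77 from limma), with exposed mice 1, 12 and 23, whose background models stood apart, at 0.03 to 0.05. With background-marked spots out of the model it was 0.21, and the adjusted p from limma was 0.086. The scanner software's processed signals, from which the background has been subtracted, gave a much larger 1.54. With these signals the exact permutation p was 0.000583 and the adjusted p from limma was 0.17. Leaving out any 1 array without background correction gave 0.19 to 0.27. Within slides 1, 2 and 3 the difference was 0.06, 0.26 and 0.24, and slide 4 held exposed mice only.

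The other Xcr1 probe, A_51_P345805, was not called either. Its log2 ratio was -0.16 to 0.03 in exposed and -0.09 to 0.03 in control lung, so that the groups overlapped, and the difference was -0.05 (95% interval -0.13 to 0.03, adjusted p = 0.75 from limma). Its ratio was nearer to 0 in lung than in liver, where it was 0.22 ± 0.10 (SD, n = 8) in control mice. Xcl1, the ligand on the array, differed by 0.04 in lung with an adjusted p of 0.87 from limma.

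**Figure D2:**
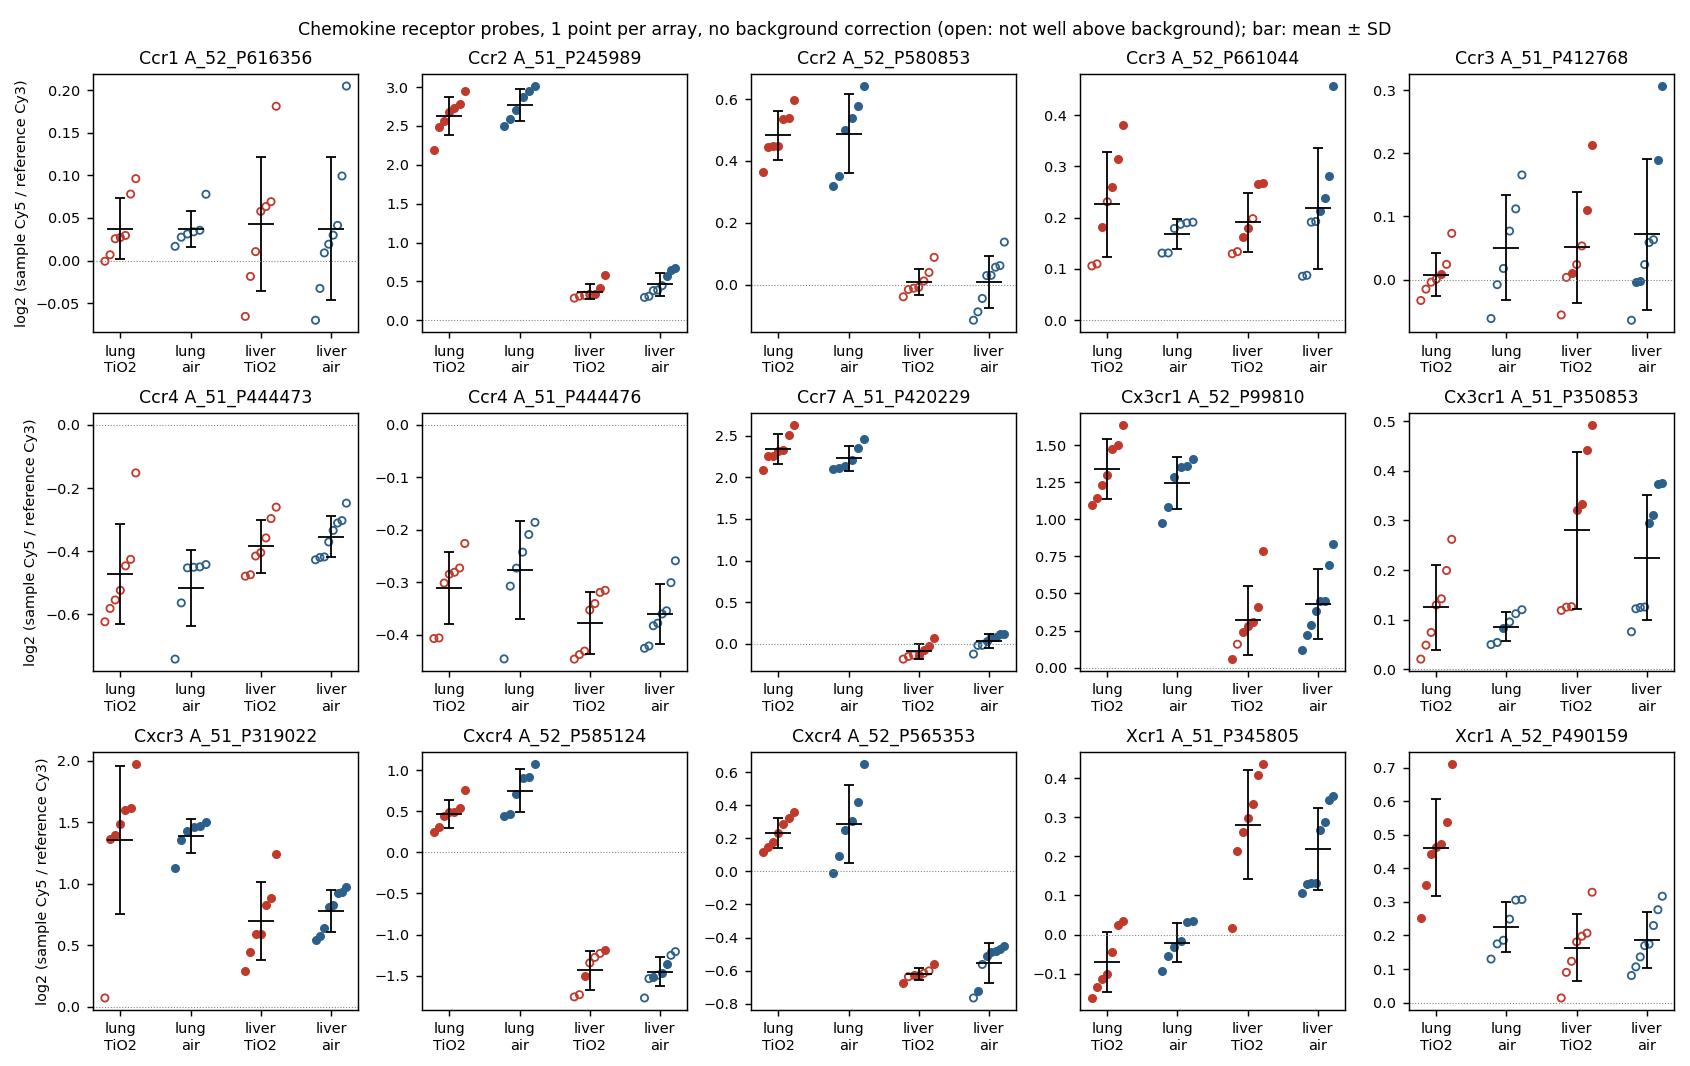
Log2 ratio of sample to reference without background correction for each receptor probe, 1 point per array in the 4 groups, with mean ± SD; open points were not well above background. Exposed and control lung overlap for every probe, and for Xcr1 A_52_P490159 the exposed lung points run from 0.25 to 0.71 and the control lung points from 0.13 to 0.31.

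Cxcr4, the receptor for Cxcl12 that holds leukocytes in marrow and guides them within tissue, had the lowest unadjusted p of the planned fit. Its leading probe A_52_P585124 gave log2 ratios of 0.24, 0.49 and 0.76 (lowest, median and highest) in exposed lung and 0.45, 0.81 and 1.08 in control lung. The exposed mice lay low within a range they shared with the controls, with 2 of 7 below every control and 1 above the control mean. The difference was -0.29 ± 0.11 (SE), a fold of 1.22 lower in exposed mice, with an exact permutation p of 0.0385 and an adjusted p of 0.53 from limma. The planned fit gave -0.44 (adjusted p = 0.29 from limma), with 5 of 7 exposed mice below every control. It was -0.28, -0.45 and -0.24 within slides 1, 2 and 3.

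The second Cxcr4 probe, A_52_P565353, gave a difference of -0.05 (95% interval -0.24 to 0.14), and its sign turned to 0.02 without control mouse 27. The planned fit gave -0.12. Whether the differences of the 2 probes differ from each other was not tested. Cxcl12 itself was 1.17-fold higher in exposed lung (adjusted p = 0.26 from limma).

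The monocyte receptors did not pass the threshold in the lung. Ccr2, the receptor for Ccl2, Ccl7 and Ccl12 by which monocytes leave the marrow, had log2 ratios of 2.18, 2.68 and 2.95 in exposed and 2.50, 2.79 and 3.01 in control lung at A_51_P245989. The ranges lay almost on top of each other, and the difference was -0.14 (95% interval -0.39 to 0.10, adjusted p = 0.76 from limma). The planned fit gave -0.94 (adjusted p = 0.32 from limma), where exposed mice 1, 12 and 23 stood at 0.80, 0.52 and 0.68, and at 2.95, 2.79 and 2.49 without background correction. The second probe, A_52_P580853, ran from 0.36 to 0.60 in exposed and from 0.32 to 0.64 in control lung.

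Cx3cr1 binds the membrane-held chemokine Cx3cl1 and keeps patrolling monocytes at the vessel wall. Its probe A_52_P99810 gave 1.10, 1.30 and 1.64 in exposed and 0.98, 1.32 and 1.41 in control lung. The difference was 0.10 (95% interval -0.11 to 0.30) without background correction and -0.39 (95% interval -0.90 to 0.12) in the planned fit, and the adjusted p from limma was 0.81 and 0.42. Its other probe was measured on 1 of 13 lung arrays.

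Ccr7, which brings naive T cells and mature dendritic cells to the T cell zones of lymph nodes, had log2 ratios of 2.09, 2.32 and 2.63 in exposed and 2.10, 2.17 and 2.46 in control lung. Of 7 exposed mice 6 lay above the control mean, but only 2 above every control. The difference was 0.11 (95% interval -0.07 to 0.30, adjusted p = 0.74 from limma), and -0.57 in the planned fit (adjusted p = 0.39 from limma). On slide 1 it was 0.42, and on slides 2 and 3 it was 0.02 and -0.08.

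Cxcr3, the receptor of effector T cells for the interferon-induced Cxcl9, Cxcl10 and Cxcl11, gave 0.07, 1.49 and 1.98 in exposed and 1.13, 1.44 and 1.50 in control lung. The lowest value is that of exposed mouse 1, on whose array the probe was not well above background and which stood far below the next exposed mouse at 1.36. The difference was -0.03 with that mouse (95% interval -0.52 to 0.45) and 0.18 without it (adjusted p = 0.70 from limma). With that mouse the planned fit gave -0.33 (95% interval -0.97 to 0.31).

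Ccr3, the eotaxin receptor of eosinophils, was measured on 4 of 13 lung arrays at its leading probe. This probe gave 0.11, 0.23 and 0.38 in exposed and 0.13, 0.18 and 0.19 in control lung, and 4 of 7 exposed mice lay above every control. The fitted difference was 0.06 (95% interval -0.04 to 0.15, adjusted p = 0.75 from limma), and its sign turned to -0.06 in the planned fit. With most of these arrays not well above background, neither value measures a fold. The other Ccr3 probe gave -0.04. For Ccr4, the receptor of Th2 and regulatory T cells for Ccl17 and Ccl22, no Cy5 signal was well above background, and the difference at A_51_P444473 was 0.26 in the planned fit (adjusted p = 0.32 from limma) and 0.04 without background correction.

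**Figure D3:**
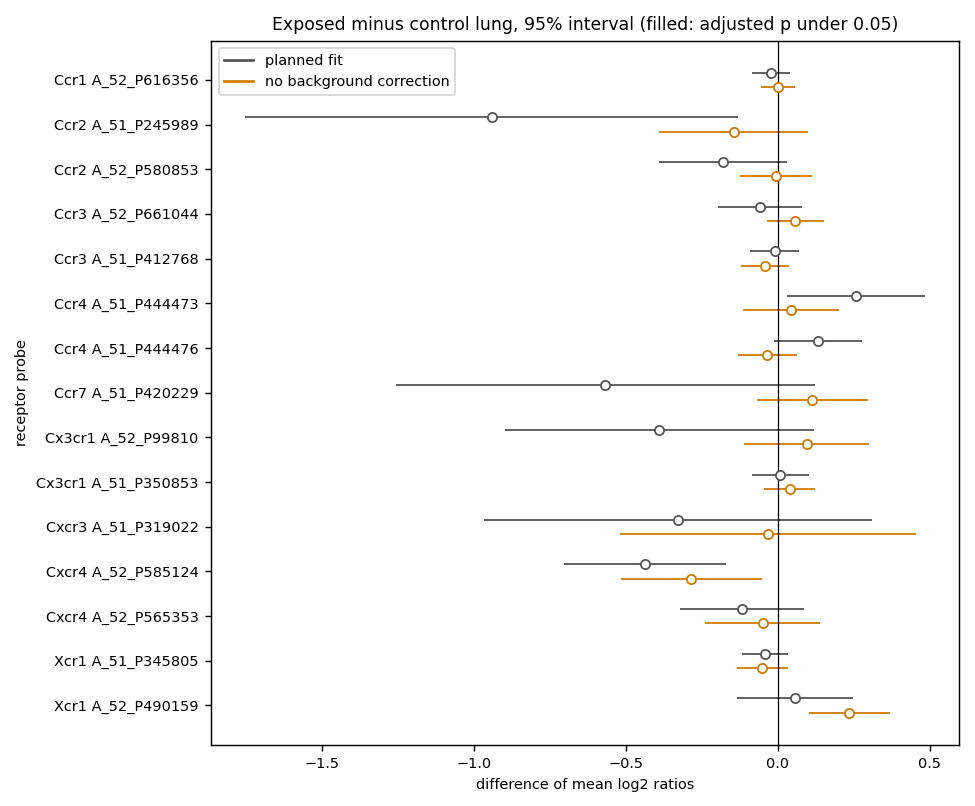
Difference of mean log2 ratios, exposed minus control lung, with its 95% interval for each receptor probe in the planned fit (grey) and without background correction (orange); open circles are not past the threshold. No circle is filled, and the widest planned interval is that of Ccr2 A_51_P245989, from -1.75 to -0.13.

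The ligands of the receptors included genes that rose in the lung. Of 22 listed ligands 19 are on the array, and 3 were called higher and 0 lower in the planned fit, with 5 higher and 0 lower without background correction. Their median log2 difference without background correction was 0.31, against 0.0005 for the leading probes of the 9 receptors and 0.0013 for all probes. That receptor median is the value of Ccr1, which was measured on no array, so it says little of the measured receptors. In the planned fit the medians were 0.16, -0.33 and -0.0058.

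Ccl7, a ligand of Ccr1, Ccr2 and Ccr3, rose 2.11-fold, from a log2 ratio of -2.79 ± 0.17 (SD, n = 6) to -1.72 ± 0.24 (SD, n = 7), with an adjusted p of 0.00031 from limma without background correction and 0.010 in the planned fit. Ccl9, a ligand of Ccr1, rose 1.98-fold and Ccl2, the main ligand of Ccr2, rose 1.85-fold, with adjusted p-values from limma of 0.00013 and 0.00052, and both also passed the planned fit. For all 3, each of the 7 exposed mice lay above every control, as for 0.346% of all probes.

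Ccl12, the other mouse ligand of Ccr2, and Ccl17, a ligand of Ccr4, were called without background correction only. Ccl12 was 1.60-fold higher (adjusted p = 0.0086 from limma) and Ccl17 was 1.86-fold higher (adjusted p = 0.034 from limma), while in the planned fit their adjusted p-values from limma were 0.36 and 0.51. The difference of Ccr2, the receptor of Ccl2, Ccl7 and Ccl12, had a 95% interval whose upper end depended on the signals used. It was 0.10 without background correction, -0.13 in the planned fit and 0.39 with processed signals. Ccl3 and Ccl6 (Ccr1), Ccl5, Ccl11 and Ccl24 (Ccr3), Ccl22 (Ccr4), Ccl19 and Ccl21c (Ccr7), Cx3cl1, Cxcl9, Cxcl10 and Cxcl11 (Cxcr3), Cxcl12 and Xcl1 were not called under either, with differences of -0.04 to 0.62 without background correction, of which Ccl22 was measured on 2 and Cxcl11 on 0 of 13 lung arrays.

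**Figure D4:**
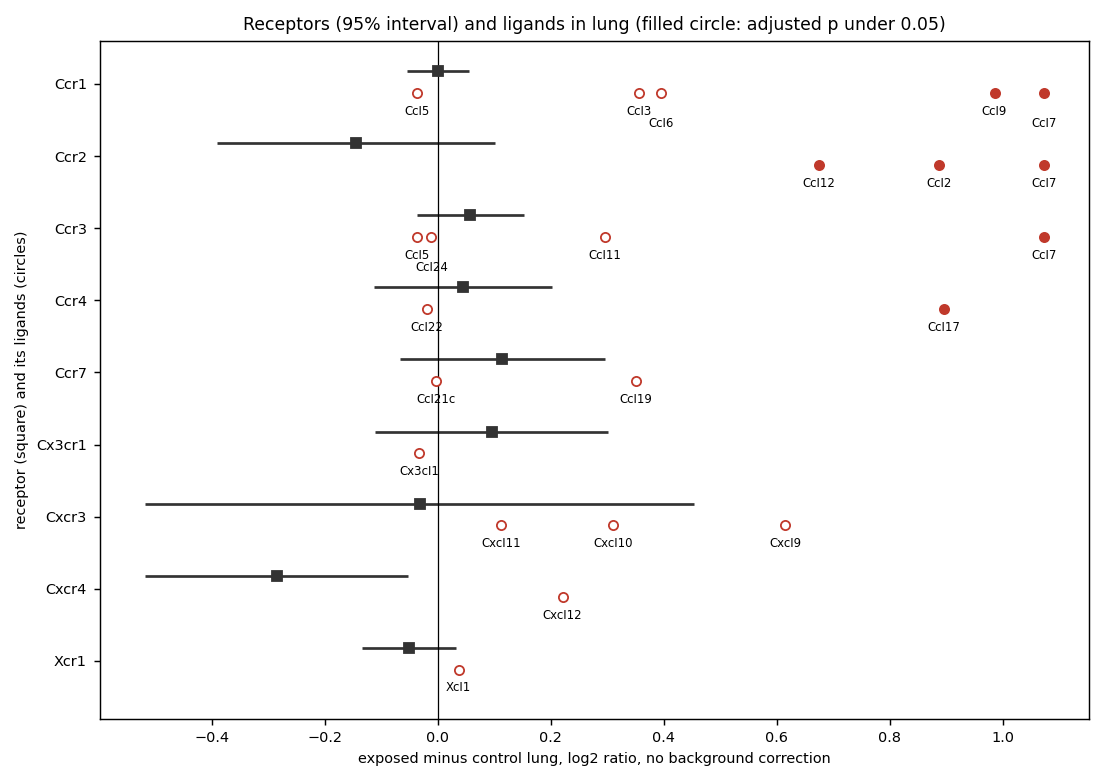
Exposed minus control lung, in log2 ratio without background correction, for the leading probe of each receptor (square, with 95% interval) and for its ligands (circles, filled where past the threshold). The filled circles, from 0.67 for Ccl12 to 1.07 for Ccl7, lie to the right of every receptor interval. Ccr1 and Ccr4 were measured on no array and Ccr3 on 4 of 13 lung arrays, so their intervals do not limit a change of these receptors.

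None of the 13 other chemokine receptors on the array, nor of the 24 genes by which these receptors signal inside the cell, was called in the lung in either fit. The most strongly hybridized of these receptors were Cxcr7 (listed as Cmkor1), the atypical receptor for Cxcl12, with a difference of -0.12, and the scavenging receptor Ccbp2, with 0.06, both without background correction. The signalling genes, among them the G protein subunits Gnai2, Gnb1 and Gnb2 and the GTPase Rac1, ran from -0.25 for Gnai2 to 0.22 for Plcb3, with a median of 0.01 against 0.0013 for all probes.

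Markers of the cells that carry the receptors were compared on the same scale, without background correction. Itgae, the CD103 chain of cross-presenting dendritic cells and mucosal T cells, rose 1.58-fold (adjusted p = 0.0079 from limma), and was the 1 called of 5 genes in its list. Clec9a, a defining gene of the same dendritic cells, differed by 0.04 and Irf8 by 0.12. Of the 5 genes 4 had a positive difference, and the lowest was -0.27. In the planned fit 2 of the 5 were positive, and the median difference was -0.07. The mean log2 ratio of the list was 1.50 to 1.66 in exposed and 1.35 to 1.53 in control lung. Clec9a and Irf8 were measured on all 13 lung arrays. The part of these cells in the Xcr1 result was not tested.

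Cd83, a surface marker of mature dendritic cells, was 1.43-fold higher (adjusted p = 0.0017 from limma) and was the 1 called of 6 genes, whose mean log2 ratio was 1.01 to 1.23 in exposed and 0.84 to 1.03 in control lung. Among macrophage and monocyte genes, the scavenger receptors Marco and Msr1 and the endotoxin co-receptor Cd14 were higher, 1.47-fold, 1.41-fold and 1.44-fold, or 2 of 8 macrophage genes and 1 of 6 monocyte genes, with list means of 1.20 to 1.44 against 1.06 to 1.30 and of 1.24 to 1.51 against 1.07 to 1.37. Siglecf and Ear1, which alveolar macrophages share with eosinophils, fell, 1.63-fold and 1.39-fold, and Epx, which is particular to eosinophils, was measured on 0 of 13 lung arrays. The mean of the 5 eosinophil genes was 0.99 to 1.27 in exposed and 1.19 to 1.42 in control lung, and the part of these cells in the receptor values was not tested. None of these 7 genes passed the planned fit. No gene was called among 10 T cell, 6 Th2 and regulatory T cell, 7 B cell, 6 natural killer cell, 11 neutrophil or 6 mast cell and basophil genes in either fit.

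In the liver 0 of 15 receptor probes were called, as were 0 of all 41174 probes (0%), both in the planned fit and without background correction. At an unadjusted p under 0.05 there were 0 of 15 in the planned fit, where 8.25% of all probes pass, and 1 without background correction, where 3.52% pass. That probe was Ccr7, with log2 ratios of -0.18, -0.13 and 0.07 in exposed and -0.12, 0.06 and 0.12 in control liver. It was lower in 6 of 7 exposed mice than the control mean, and the difference was -0.13 ± 0.05 (SE; exact permutation p = 0.0172 over 6435 splits, adjusted p = 1 from limma). It was negative within each of the 4 slides, from -0.19 to -0.04, but the probe was well above background on 9 of 15 liver arrays only. The planned fit gave -0.12 (adjusted p = 0.55 from limma).

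The differences of the other receptors in liver without background correction lay between -0.11 for Cx3cr1 and 0.06 for the Xcr1 probe A_51_P345805. Their intervals ran at most from -0.35 to 0.23. In the planned fit the differences lay between -0.34 for Cxcr4 A_52_P585124 (95% interval -0.88 to 0.19) and 0.10 for Cxcr3. None of the ligands was called in liver.

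The exposure effects of lung and liver were compared directly over the 28 arrays. Of the 15 probes 0 were called, against 0.017% of all probes in the planned fit and 0.121% without background correction. The Xcr1 probe A_52_P490159 again came first without background correction, with a lung effect that exceeded the liver effect by 0.26 (95% interval 0.10 to 0.42, adjusted p = 0.63 from limma). Ccr7 followed with 0.24 (95% interval 0.04 to 0.44, adjusted p = 1 from limma), being nominally higher in lung and lower in liver. The same differences of effects were -0.02 and -0.45 in the planned fit, so that both signs turned. The Xcr1 probe was not well above background in any group but exposed lung.

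Between the tissues, most receptors that were measured were higher in lung. Of the 15 probes, 9 were called between control lung and control liver in the planned fit (60%), against 54.2% of all probes. The share called higher in lung was 46.7% of the receptor probes, 7 of 15, against 28% of all probes, and 2 were called lower, where 26.2% of all probes were lower. Without background correction 10 were called (66.7%, against 61.8% of all probes), with the same 7 higher, where 31.3% of all probes were, and 3 lower, where 30.5% were. At each of these 7, every control lung array lay above every control liver array without background correction, as for 22.4% of all probes.

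Ccr2, Cxcr4 and Ccr7 had the largest differences of the receptors, each at its leading probe, in the planned fit, without background correction and with processed signals. Ccr2 at A_51_P245989 was 2.77 ± 0.20 (SD, n = 6) in control lung and 0.46 ± 0.15 (SD, n = 8) in control liver, 4.95-fold apart (adjusted p = 7.1e-19 from limma), and Ccr7 was 2.23 ± 0.15 and 0.04 ± 0.08, 4.56-fold apart (adjusted p = 1.1e-21 from limma). The planned fit gave 5.14-fold and 4.48-fold, and processed signals gave 16.4-fold and 10.9-fold, so that the size of these folds depends on the signals used. At its second probe Ccr2 was measured on all lung and 0 of 15 liver arrays, and control lung was at least 1.38-fold higher. Ccr2 reached the measured range on 6 of 15 liver arrays and Ccr7 on 9, so that on the other liver arrays the spots were dim.

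Cxcr4 was 0.75 ± 0.26 in lung and -1.45 ± 0.18 in liver at A_52_P585124, 4.62-fold apart, and 1.79-fold apart at the other probe, so that both probes were higher in lung. The leading probe was well above background on 3 of 8 control liver arrays only, and the size of its fold is uncertain, at 3.83 in the planned fit and 22.2 with processed signals, which gave 3.92 at the other probe. The mean ratio of either probe was above 0 in lung and below 0 in liver. Cx3cr1 was 1.76-fold and Cxcr3 1.53-fold higher in lung, from 0.43 ± 0.24 to 1.24 ± 0.17 and from 0.78 ± 0.17 to 1.39 ± 0.14, with adjusted p-values from limma of 2.2e-07 and 0.0046. The second Cx3cr1 probe, A_51_P350853, measured on 1 of 13 lung and 8 of 15 liver arrays, ran the other way at -0.14 (adjusted p = 0.047 from limma) and was not called in the planned fit.

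Xcr1 at A_51_P345805 went the other way, being 1.18-fold higher in liver (adjusted p = 0.00032 from limma), a difference that missed the threshold with median centering, and was measured on all 28 arrays. Ccr4, called lower in lung at A_51_P444473, has no measured signal on either side and so no fold to report, and its overlapping probe was not called. Ccr3 at its leading probe did not pass, with a difference of -0.05 (95% interval -0.15 to 0.05), although it was measured on 4 of 8 control liver and 0 of 6 control lung arrays.

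**Figure D5:**
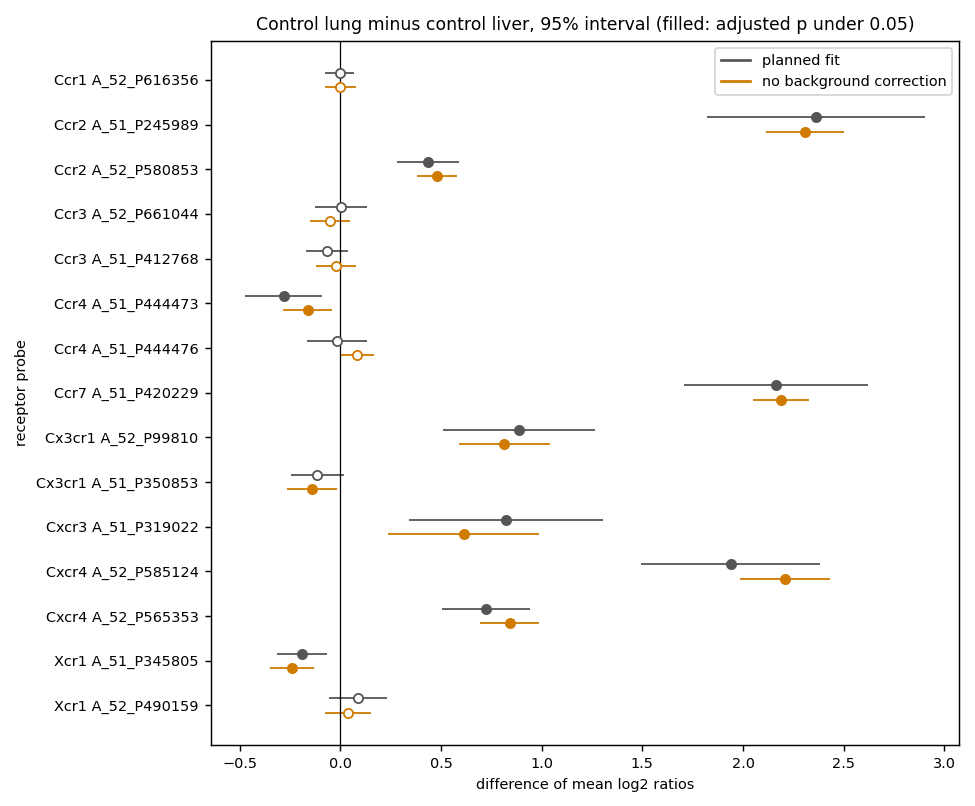
Difference of mean log2 ratios, control lung minus control liver, with its 95% interval for each receptor probe in the planned fit (grey) and without background correction (orange); filled circles are past the threshold. Ccr2 A_51_P245989, Ccr7 and Cxcr4 A_52_P585124 lie farthest to the right, near a log2 difference of 2.

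Ordered over the 4 groups by mean, Ccr2, Ccr7, Cx3cr1, Cxcr3 and Cxcr4 had both lung groups above both liver groups at their leading probes. The second Cx3cr1 probe had both lung groups below both liver groups. Within each tissue the exposed and control groups did not differ beyond the threshold. Of the 13 other chemokine receptors on the array, 8 were called higher in lung and 3 lower in the planned fit, and of the 24 signalling genes 18 were higher and 2 lower, where 28% of all probes were higher and 26.2% lower. Of the ligands 7 of 19 were called higher and 7 lower in lung, among the latter all 3 ligands of Cxcr3, with Cxcl9 8.11-fold higher in liver, while Cx3cl1 was 12.2-fold higher in lung, both without background correction. All 6 monocyte genes on the array were higher in lung and all 4 Kupffer cell genes lower.

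Genes whose log2 ratios followed each receptor most closely over the 13 lung arrays, without background correction, are given as a description. The arrays share slides and the reference, and the genes are the highest of 26118 candidate probes. Probes at background, those of Ccr1 and Ccr4, reached similar values, so the values do not show a relation. For Ccr2 the planned fit gave other genes, Gbp5 first at 0.993. Ccr2 was followed by Ahr, the aryl hydrocarbon receptor, at a Pearson r of 0.925, by Med28 at 0.894 and by Upf1 at 0.879. Cx3cr1 was followed by A930008G19Rik at 0.919, Tubb2a at 0.881 and Edg6, the sphingosine-1-phosphate receptor now called S1pr4, at 0.864. Cxcr4 was followed by Pcaf, Frmd4a and Blm at 0.911, 0.895 and 0.883, and Cxcr3 by Enpp1, Nfatc2 and Leng9 at 0.881, 0.869 and 0.868. Ccr7 had Tcf21, Hmcn1 and AU040829 at 0.804 to 0.817 and Xcr1, at its leading probe, Aof2, Dnajc6 and Zdhhc7 at 0.838 to 0.866. The nearest genes to Ccr1, Ccr3 and Ccr4, at 0.840 to 0.891, follow spots at or near background and are named no further.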

How the data were processed

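RNA of 13 lungs and 15 livers was measured on 28 2-color arrays. The deposited scanner output (Agilent Feature Extraction 9.5.3.1 for lung, 10.1.1.1 for liver) gives raw spot and background intensities before any normalization, and its yes or no marks of spot quality. The authors also deposited LOWESS-normalized log2 ratios, which served as an alternative, and all 28 of their columns were matched to mice by the labels. The microRNA arrays were not used here.

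In the planned fit, spots marked as feature outliers were set to missing, median intensities were corrected by normexp (offset 50), arrays were loess normalized with control spots at weight 0, and replicate spots were averaged by probe. The tests used limma 3.58.1 (lmFit, eBayes) in R 4.3.3, with statmod 1.5.0 and figures by matplotlib 3.10.9, at a Benjamini-Hochberg adjusted p of 0.05 over all probes. The lung and liver were fitted separately for the exposure effect, and all 28 arrays together for the tissue comparison and for the difference of effects. Exact permutation tests were 2-sided, and were planned for the leading probe of each receptor. For a probe that no array of a group measured, the bound uses the Cy5 signal without background correction after loess and Aquantile, with each array's floor at its lowest signal among measured probes, or at the probe's own signal if higher. Alternatives changed the signals (the scanner software's background-subtracted, dye-normalized ones), the background model, normalization, filter, slide, mouse and arrays used. The fits were run on simulated independent values, with the mean and spread of each probe taken without background correction. In each simulated set 200 probes were moved by a log2 of 1. Of these 98% to 99.5% were recovered, and 4 to 11 other probes were called. The values entered after normalization, without slide or mouse structure, and smaller differences were not tried. The share recovered therefore does not describe the planned fit, whose spread was not simulated. The number of arrays limits the precision, and p-values of the exposure effects measure the spread between mice within a tissue. Both fits over all 28 arrays took them as independent, though 12 mice gave both tissues. In the tissue comparison, differences of tissue, slide and scanner software version cannot be told apart.

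The members, gene lists and tests were chosen with earlier results of these data known. Named are all members with all their probes, their ligands, genes of other lists that were called and up to 4 more by mean signal, and the 3 genes most like each receptor over the lung arrays, from probes measured on 50% of them or more. Each receptor is led by its probe of highest mean signal. Some numbers of exposed mice on the mRNA arrays belong to controls in the microRNA labels. The same number on a lung and a liver mRNA array was taken to mark 1 mouse, per the labels. Their deviations from group means correlated at -0.012 to 0.179 over 12 mice in the planned fit, and above 0.1 in 3.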

Additional observations from a re-analysis of the deposited data

Results flagged for a closer look

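The gap of the outermost value was compared with Dixon's limit for the leading probe of each receptor in each group, under both scales, and 6 of 72 groups passed it, where chance gives about 5%. Exposed lung mouse 1 gave Cxcr3 at 0.0707 without background correction, with the other exposed lungs from 1.36 to 1.98. Exposed lung mouse 20 gave Ccr4 at -0.15, with the others from -0.62 to -0.43, and control lung mouse 26 gave Ccr1 at 0.0778, with the others from 0.02 to 0.04, both on spots that were not well above background. In the planned fit exposed liver mouse 13 gave Ccr2 at 0.57, with the others from 0.26 to 0.35. There exposed liver mouse 19 gave Ccr4 at -0.26, with the others from -0.46 to -0.39, and control lung mouse 29 gave Cxcr3 at 1.08, with the others from 1.38 to 1.48.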

How the results depend on the processing

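The count of receptor probes called was 0 for lung, liver and the difference of their exposure effects under every alternative run and without any 1 array, and 8 to 10 between the control tissues, where it was 9 without any 1 array. With the mouse as a replicate block the tissue count was 9, and with within-mouse differences, also a replicate block, it was 8. Over all probes, lung calls were 22 in the planned fit, 84 without background correction, 91 with background-marked spots out of the model, 74 with the scanner software's processed signals, 71 in the authors' table and 0 with median centering.

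The following differences changed sign from the planned fit, none past the threshold, and the cause was not tested. Without background correction, Ccr3, Ccr7 and Cx3cr1 in lung were 0.0579, 0.1144 and 0.0954, Ccr2, Ccr3, Cxcr3 and Cxcr4 in liver -0.094, -0.0273, -0.0835 and 0.019, and Ccr3, Ccr7, Cx3cr1 and Cxcr3 between the effects 0.0853, 0.2395, 0.2053 and 0.0514. With background-marked spots out of the model the same were 0.0026, 0.1147 and 0.0707, then -0.061, -0.0383, -0.0897 and 0.0457, then 0.0408, 0.2579, 0.2324 and 0.0657. In the authors' table they were 0.0571, 0.0871 and 0.0755, then -0.094, -0.0242, -0.0755 and 0.0243, then 0.0813, 0.214, 0.1812 and 0.0448. With processed signals, Ccr2, Ccr3 and Cxcr3 in liver were -0.1584, -0.3988 and -0.1262, and Ccr2, Ccr3, Ccr7 and Cx3cr1 between the effects 0.0894, 0.3322, 0.419 and 0.3003. Ccr3 between the control tissues was -0.0502, -0.0383 and -0.0317 under the first 3 of these, -0.0131 with the model on all spots and -0.0406 with median centering, which also gave -0.0152 in liver and 0.001 between the effects. With slide as a fixed or random block Ccr3 in liver was -0.0079 and -0.0043. Without 1 array, Ccr3 ran from -0.0308 to 0.0351 in liver and from -0.0297 to 0.023 between the tissues, Cx3cr1 in liver from -0.1217 to 0.0008, and Cxcr4 between the effects from -0.2447 to 0.0094. Without background correction and exposed mouse 1, Cxcr3 in lung was 0.1826. Xcr1 A_51_P345805 between the control tissues missed the threshold with median centering, at -0.10, and with within-mouse differences, at -0.15.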
